A study of Mus musculus with 23 samples.

Results

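The genes described here are 10 that act in the making of red blood cells: the transcription factors and cofactors Gata1, Klf1, Tal1, Nfe2, Gfi1b, Zfpm1, Lmo2, Bcl11a, and Myb, and Epor, the receptor for erythropoietin (EPO). They were found by their symbols among the 17644 genes of the TPM table, and all 10 of 10 were among the 14364 genes with enough counts to be tested. RNA-Seq had been performed on femur and tibia of 1 hind limb, with the marrow spun out, from 23 female C57BL6/N mice at 11 weeks of age. Each mouse gave 1 library. Of the WT mice, 5 were Control and 6 had T1D, and of the mice labelled KO, 6 were Control and 6 had T1D. KO stands for the global Sarm1-KO line, in which Sarm1, an NAD-cleaving enzyme of axon degeneration, is deleted in the whole body. Both T1D groups had been fasted and given streptozotocin (STZ), a toxin of insulin-producing β cells, at 100 mg/kg per injection, and had been diabetic for 3 weeks. Control mice received saline after the same fast. The study asked which genes changed with T1D in WT bone but not in Sarm1-KO bone.

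Red cells arise in the marrow from progenitors that become erythroblasts. GATA1 is the master regulator of this lineage, FOG1 (the product of Zfpm1) is its cofactor, and GATA1 binds DNA together with a complex that holds TAL1 and LMO2. KLF1 and NF-E2 (its large subunit is encoded by Nfe2) activate globin and other red cell genes, GFI1B is a repressor, BCL11A silences embryonic globins, and MYB maintains dividing progenitors. EPO, made in the kidney, binds EPOR and signals through JAK2 and STAT5 to keep erythroblasts alive. GATA1, TAL1, NF-E2, and GFI1B also act in megakaryocytes, and BCL11A acts in B cells and plasmacytoid dendritic cells.

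The stretches upstream of the start sites are shown because regulators in this set bind GATA and CACC-type letters. The 4 windows printed are those that held the GATA letters, and they differ in the CACC-type (KLF) letters. The other member windows are not printed. RefSeq (GRCm38.p6) gave promoter windows for 8 of the 10 members, 9 windows in all, and only the 250 bases before each start were used. Capitals mark matches to the GATA letters, which are AGATAA or the same word ending in G and the same 2 words beginning with T, and to the KLF letters (CCNCNCCC), each searched on both strands, and neighboring matches may overlap. The windows lie at chr9:21963577-21963826 on the minus strand (Epor), chr2:28621983-28622232 on the minus strand (Gfi1b), chr8:84901732-84901981 on the plus strand (Klf1), and chr4:115056176-115056425 on the plus strand (the first of the Tal1 starts).
Epor: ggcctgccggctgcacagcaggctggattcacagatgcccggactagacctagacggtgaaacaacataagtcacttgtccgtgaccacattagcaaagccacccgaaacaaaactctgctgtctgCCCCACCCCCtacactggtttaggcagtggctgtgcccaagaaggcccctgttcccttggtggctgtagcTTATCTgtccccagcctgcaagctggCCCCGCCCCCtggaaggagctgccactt
Gfi1b: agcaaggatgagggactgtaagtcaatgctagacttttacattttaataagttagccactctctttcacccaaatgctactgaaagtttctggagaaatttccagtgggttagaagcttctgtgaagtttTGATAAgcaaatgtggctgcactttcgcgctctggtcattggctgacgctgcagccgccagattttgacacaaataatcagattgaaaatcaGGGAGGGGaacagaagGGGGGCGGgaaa
Klf1: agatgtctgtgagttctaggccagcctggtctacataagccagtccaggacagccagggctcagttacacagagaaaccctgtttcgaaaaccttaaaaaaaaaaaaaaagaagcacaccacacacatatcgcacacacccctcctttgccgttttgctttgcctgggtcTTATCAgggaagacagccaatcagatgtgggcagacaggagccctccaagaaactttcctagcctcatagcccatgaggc
Tal1: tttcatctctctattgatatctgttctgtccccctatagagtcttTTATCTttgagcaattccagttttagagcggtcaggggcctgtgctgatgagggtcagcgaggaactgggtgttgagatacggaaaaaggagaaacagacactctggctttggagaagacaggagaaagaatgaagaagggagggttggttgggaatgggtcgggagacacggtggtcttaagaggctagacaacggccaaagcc
The Epor window held 1 GATA match, 54 bases before the start, and 4 overlapping KLF matches in 2 clusters. The first bases after this start were found in 0 Epor transcripts of the GENCODE annotation, so these distances hold for the RefSeq start only. Gfi1b held 1 GATA match 120 bases before the start and 2 KLF matches 28 and 12 bases before it. Klf1 and the first Tal1 start each held 1 GATA match, 80 and 205 bases before the start, and no KLF match. The window of the second Tal1 start, at chr4:115057561-115057810 on the plus strand and not printed, held 0 GATA and 4 KLF matches. Over the 9 member windows, GATA letters were in 4 and KLF letters in 7, against 26.5% and 45.9% of all 32851 windows. Both kinds stood in 2 member windows, Epor and Gfi1b, against 8.19% of all windows. The E-box letters CAGNTG, a core bound by TAL1, were in 2 member windows (Klf1 and Epor, not in capitals) and in 44.8% of all. These matches describe the letters in the windows, not binding.

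The members lie on 8 chromosomes. Gata1 is at X:7959260-7976663, Klf1 at 8:84901982-84905291, Zfpm1 at 8:122281856-122337862, Tal1 at 4:115056426-115071755, and Nfe2 at 15:103248212-103258403 (GRCm38.p6). Gfi1b and Lmo2 are both on chromosome 2, at 2:28609450-28621982 and 2:103957903-103981878. Bcl11a is at 11:24076564-24173558, Myb at 10:21124930-21160984, and Epor at 9:21958897-21963576. Values were per gene, over its exons. Predicted or noncoding genes overlap Gata1, Tal1, Gfi1b, Zfpm1, Lmo2, and Bcl11a, and the strand setting of the counting is not given in the sources used here, so reads of such neighbors could not be separated.

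Total counts per mouse ranged from 16938101 to 20135592, and the members had between 692 (Bcl11a) and 7661 (Nfe2) counts per library. Sarm1 had from 15 to 32 counts in WT Control, 6 to 21 in WT T1D, 5 to 29 in KO Control, and 15 to 28 in KO T1D. The counts were few and overlapped between genotypes, with a median of 17 in WT Control against 14 in KO Control and of 12 in WT T1D against 23 in KO T1D. They do not separate the genotypes, and the deleted stretch is not given in the sources used here, so the groups are named by their labels, as mice labelled Sarm1-KO. The bone markers (11 osteoblast and osteocyte genes, Col1a1 among them) were detected, but their summed level was 4425 CPM (counts scaled to the size of the library) in WT T1D mouse A3905 and 3532 CPM in A3906, against 35893 to 78240 CPM in the other 21 mice. These libraries held little osteoblast RNA and differed in other marker sums too, as given below. The calls in WT are also given without them. IDs beginning with A17 occurred in WT Control (1 mouse) and WT T1D (3 mice) and in neither KO group, so results are also given within the mice numbered A36 to A39. What the ID series stand for is not given in the labels.

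Compared per length, as TPM (transcript abundance scaled to length and depth, from the sequencing provider), Nfe2 was the most abundant member, at 290.4 ± 34.3 (SD, n = 23 mice), followed by Klf1 at 184 ± 30.6. Lmo2 (125 ± 9.83), Zfpm1 (115 ± 18.3), and Gata1 (103 ± 12.7) formed the middle of the order. Gfi1b (77.8 ± 12.2), Myb (77.7 ± 13.6), and Epor (73.8 ± 7.77) came next, then Tal1 (56.0 ± 8.43), and Bcl11a was lowest at 24.5 ± 2.56. Nfe2 exceeded Klf1 in 23 of 23 mice, and Klf1 exceeded Lmo2 in 23. The order of Gfi1b and Myb was not stable, since Gfi1b was the higher of the pair in 10 mice, and Myb exceeded Epor in 16. Lmo2 was above Zfpm1, and Zfpm1 above Gata1, in 18 mice each.

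Nfe2, the large NF-E2 subunit, showed the clearest separation with T1D in WT bone. On the CPM scale (normalized with TMM, for comparing mice), the WT Control mice had 318 (A1757), 253 (A3767), 247 (A3903), 318 (A3904), and 232 (A3907). WT T1D mice ranged from 342 to 438 with a median of 387, so every WT T1D mouse was above every WT Control mouse. The log2 fold change was 0.52 ± 0.11 (SE), 1.43-fold, with an adjusted p of 0.0293 (edgeR). In KO Control the values ran from 253 to 325 (median 304) and in KO T1D from 255 to 378 (median 315), and these groups overlapped, with a log2 fold change of 0.10 ± 0.10.

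Tal1, the basic helix-loop-helix factor that joins GATA1 on DNA, was the other member whose WT groups did not overlap in CPM. WT Control mice had 156 (A1757), 148 (A3767), 131 (A3903), 143 (A3904), and 113 (A3907), and WT T1D mice ranged from 158 to 291 with a median of 193. The gap between the groups was small, with 3 of the 6 WT T1D mice at 158, 158, and 172, and the highest at 238 (A3905) and 291 (A3906). The change was 0.57 ± 0.16 (log2, adjusted p = 0.0497, edgeR). Over all tested genes, 1.32% had every WT T1D mouse above every WT Control mouse in CPM. On the TPM scale both genes overlapped between the WT groups, Nfe2 with 229 to 312 in WT Control and 288 to 344 in WT T1D, and Tal1 with 40.6 to 54.1 and 48.9 to 74.4. KO Control ranged from 104 to 206 CPM of Tal1 and KO T1D from 164 to 195, with a log2 fold change of 0.11 ± 0.15.

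Epor had the third call. The WT Control mice had 98.6 (A1757), 78.2 (A3767), 71.4 (A3903), 79.0 (A3904), and 69.9 CPM (A3907), and the WT T1D mice ranged from 95.1 to 133 with a median of 111. Of the 6 WT T1D mice, 4 were above every WT Control mouse, and the overlap came from A1757 alone. Epor rose by 0.48 ± 0.12 on the log2 scale, 1.40-fold (adjusted p = 0.0406, edgeR). In the mice labelled Sarm1-KO it was 59.5 to 103 CPM (median 84.2) in Control and 78.9 to 102 CPM (median 89.7) in T1D, a change of 0.11 ± 0.11.

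**Figure D1:**
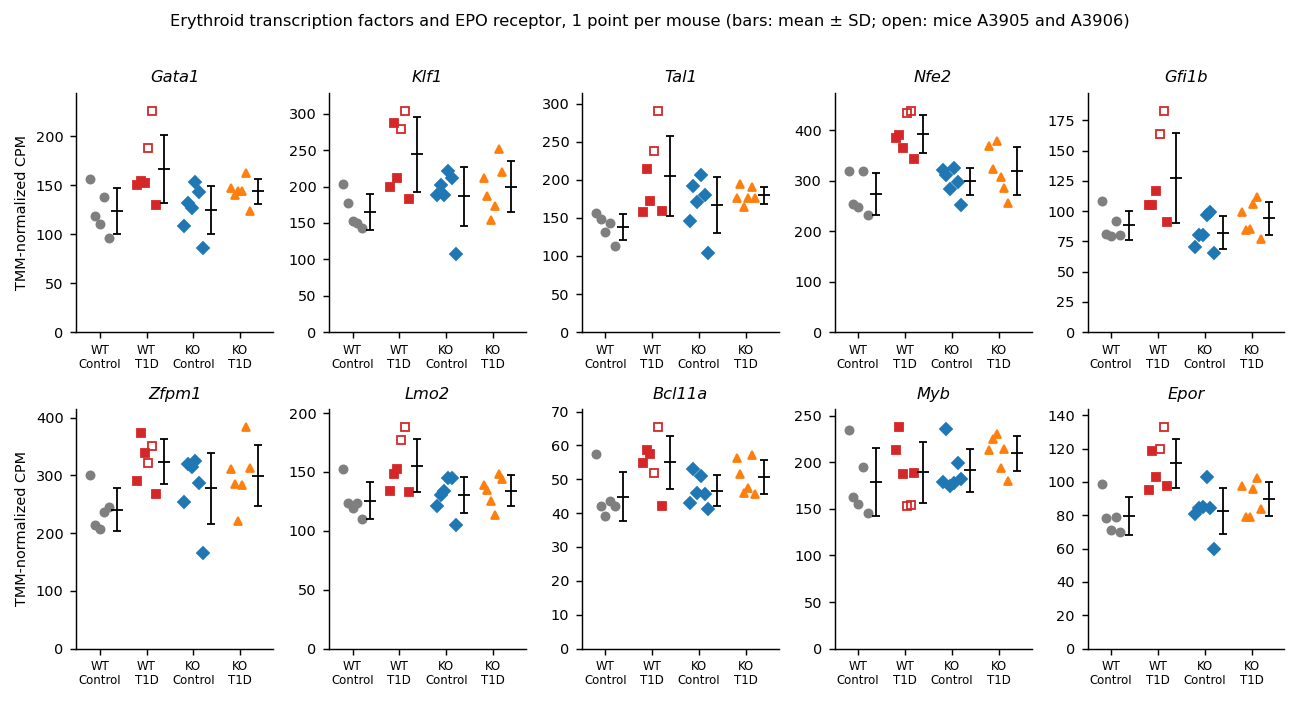
TMM-normalized CPM of the 10 members on linear axes from 0, with 1 point per mouse in the 4 groups and the mean ± SD beside them, and the low-bone libraries A3905 and A3906 as open squares. The WT groups are apart for Nfe2 and Tal1, and A3905 and A3906 are the highest WT T1D points of Gata1, Tal1, Gfi1b, Nfe2, Lmo2, and Epor but the lowest of Myb.

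The remaining factors did not pass the test in WT bone. Klf1, the activator of adult globin, was 143 to 203 CPM in WT Control and 183 to 304 CPM in WT T1D, with 4 of 6 WT T1D mice above all Control mice, and its difference was 0.56 ± 0.17 (adjusted p = 0.0614). For the repressor Gfi1b the ranges were 79.8 to 108 and 91.0 to 183 CPM, with 0.53 ± 0.16 (adjusted p = 0.0639). Gata1 ranged from 95.7 to 157 and from 130 to 226 CPM, where 2 of 6 WT T1D mice, A3905 and A3906, were above all Control mice, with 0.43 ± 0.14 (adjusted p = 0.0911). Its cofactor gene Zfpm1 had 208 to 300.5 and 268 to 374 CPM, with 0.43 ± 0.15 (adjusted p = 0.0987). Lmo2, the bridging protein of the TAL1 complex, had 110 to 152 and 133 to 188 CPM, with 0.31 ± 0.10 (adjusted p = 0.0904). These groups overlapped for each of the 5 genes, mainly through WT Control mouse A1757, which had the highest Control value of each.

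Bcl11a and Myb stood at the low end. Bcl11a, the globin-silencing repressor, had 39.1 to 57.6 CPM in WT Control and 42.0 to 65.4 CPM in WT T1D, with 0.29 ± 0.11 (adjusted p = 0.108). Myb, the progenitor factor, had 146 to 235 and 153.5 to 238 CPM, with 0.08 ± 0.12 (adjusted p = 0.745) and a 95% interval from -0.16 to 0.32. The low WT T1D values of Myb were 153.5 (A3905) and 153.9 CPM (A3906), the mice with the highest WT T1D values of Gata1, Tal1, and Epor.

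Taking the 10 members as a list, 3 were called higher with T1D in WT bone and 0 lower, where 2.6% of all tested genes were called and 1.71% were called higher. All 10 had a positive log2 fold change and 9 had an unadjusted p under 0.05, as did 3156 of all tested genes (22%). Their median log2 fold change was 0.46, against -0.01 over all tested genes, of which 48.1% were positive. With DESeq2 in place of edgeR, 6 members were called, namely Nfe2, Epor, Tal1, Klf1, Gfi1b, and Gata1, where 4.13% of all genes were called higher.

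These calls rested on few mice. The count of called members was 0 without both A3905 and A3906 (0 of all tested genes were then called), with log2 fold changes of all 10 members still positive, from 0.17 (Lmo2) to 0.43 (Nfe2). In the 4 other WT T1D mice, Nfe2 was 342 to 390 and Tal1 158 to 214 CPM. That these mice stayed above every WT Control mouse follows from all WT T1D mice being above them, so it is no separate result. Leaving out 1 WT Control mouse gave 8 called members without A1757 (672 of all genes called), 1 without A3904 (13 genes), and 0 without A3767 (0 genes), A3903 (20 genes), or A3907 (0 genes). Leaving out 1 WT T1D mouse gave 8 without A3909 (1253 genes), 6 without A1764 (989 genes), 3 without A1758 (522 genes), 1 without A1787 (134 genes), and 0 without A3905 (5 genes) or A3906 (6 genes). The counts of members thus moved with the count over all genes. KO mice entered through the shared spread, the normalization, and the filter on low counts. The count was 5 without A3766 (574 genes), 1 without A3670 (146 genes), and 2 without each of the other 10 KO mice (137 to 380 genes), where the call of Tal1 was lost. Among mice numbered A36 to A39, 7 members were called, Zfpm1, Bcl11a, and Myb being the exceptions, and 7.85% of all genes were called higher. That subset had 3 WT T1D mice, of which A3905 and A3906 were 2.

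**Figure D2:**
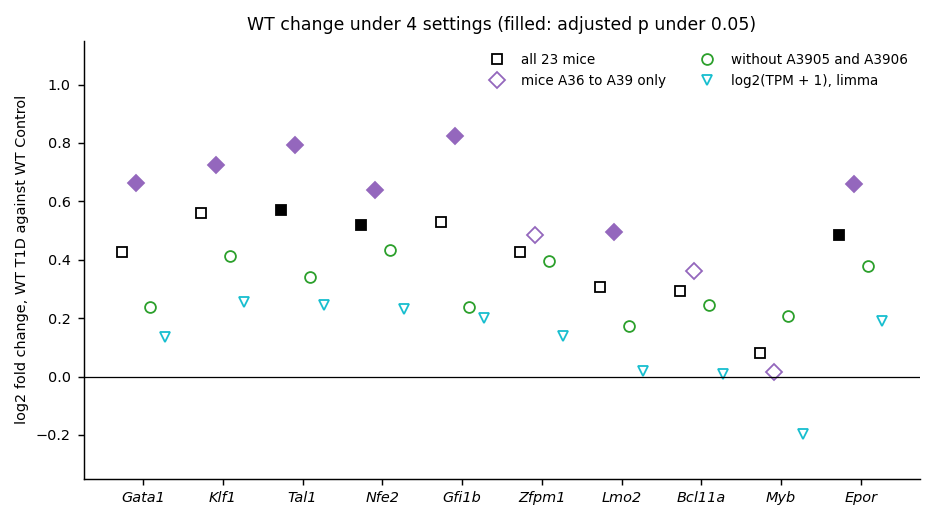
Log2 fold change of each member, WT T1D against WT Control, with all 23 mice, with mice A36 to A39 only, without A3905 and A3906, and on log2(TPM + 1) with limma, where filled symbols passed an adjusted p of 0.05. Mice A36 to A39 give the highest values for 9 members, no member passes without A3905 and A3906 or on the TPM scale, and Myb is negative on the TPM scale.

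The scale also mattered. On log2(TPM + 1) with limma, the median of all tested genes was -0.24 in WT T1D against WT Control. Klf1 was 0.26, Tal1 0.24, Nfe2 0.23, Gfi1b 0.20, Epor 0.19, Zfpm1 0.14, Gata1 0.13, Lmo2 0.02, Bcl11a 0.01, and Myb -0.20, and 0 members passed (adjusted p of 0.0626 for Nfe2 and 0.0825 for Epor, limma), where 35.9% of all genes were called in either direction. Relative to that median, the differences were 0.47 for Nfe2, 0.48 for Tal1, 0.43 for Epor, and 0.04 for Myb. Hemoglobin genes took up 9.73% to 13.9% of all counts in WT Control and 12.3% to 21.4% in WT T1D. Their part in the shift of the TPM scale was not tested.

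In the mice labelled Sarm1-KO, 0 members were called with T1D, and 0.0% of all genes were (edgeR). The 10 log2 fold changes were positive and ranged from 0.04 (Lmo2) to 0.20 (Gata1), with a median of 0.11 against -0.00 over all genes, and each adjusted p was 1.00. At an unadjusted p under 0.05 there were 0 members and 435 of all genes, and DESeq2 also called 0 members. The 95% interval of the change was -0.10 to 0.29 for Nfe2, -0.18 to 0.40 for Tal1, and -0.10 to 0.33 for Epor.

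**Figure D3:**
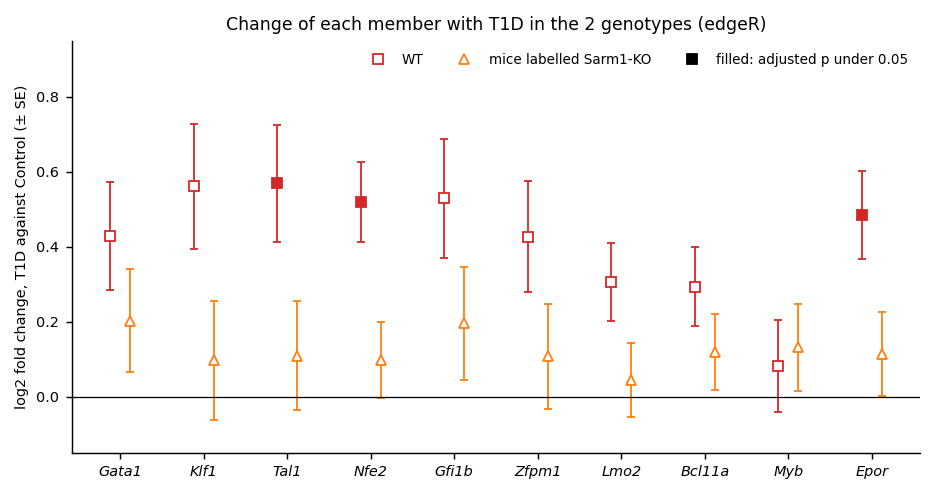
Log2 fold change ± SE with T1D of each member in WT (squares) and in mice labelled Sarm1-KO (triangles) from edgeR, with filled symbols for an adjusted p under 0.05. Nfe2, Tal1, and Epor are filled in WT, no KO symbol is filled, and the WT estimate is the higher of the pair for each member but Myb.

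The test of the difference between genotypes is the interaction term. It gave 0 called members and 0.0% of all genes, with edgeR and with DESeq2, while 1433 of all genes had an unadjusted p under 0.05. The difference of the T1D change, KO minus WT, was negative for 9 members and 0.05 ± 0.17 for Myb. Nfe2 had -0.42 ± 0.15 (95% interval -0.71 to -0.14), with an unadjusted p of 0.00800 and an adjusted p of 0.489 from edgeR. For Epor it was -0.37 ± 0.16 (unadjusted p = 0.0302, edgeR) and for Tal1 -0.46 ± 0.21 (unadjusted p = 0.0416, edgeR), each with an adjusted p of 0.489. Klf1 had -0.47 ± 0.23, with an unadjusted p of 0.0541 and an adjusted p of 0.502 from edgeR. Its 95% interval, a normal multiple of the SE, ran from -0.91 to -0.02, although the unadjusted p was not under 0.05. A difference between genotypes was thus not shown for any member after correction, although the rise was called in WT and not in KO.

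Genotype by itself had no called member. Among Control mice, KO minus WT ran from -0.11 (Gfi1b) to 0.27 (Tal1), 0 members were called, and 0.0278% of all genes were. Among T1D mice, 9 of 10 members were lower in KO, from -0.44 ± 0.15 (Gfi1b, adjusted p = 0.187) and -0.31 ± 0.11 (Epor, adjusted p = 0.189) to -0.11 ± 0.14 (Zfpm1), and Myb was 0.15 ± 0.12. Nfe2 was -0.30 ± 0.10 (adjusted p = 0.185), with 4 of 6 KO T1D mice below every WT T1D mouse. 0 members were called here, against 0.0348% of all genes, and 4 had an unadjusted p under 0.05, as did 2394 of all genes (16.7%). On both TPM scales Gata1, Tal1, Zfpm1, and Bcl11a turned positive, but the median of all tested genes was itself 0.17 (TPM + 1) and 0.21 (TPM + 0.1). Relative to that median on TPM + 1, Gata1 was -0.16, Tal1 -0.12, Zfpm1 -0.09, and Bcl11a -0.16. Without A3905 and A3906, Tal1 was 0.033, Gata1 -0.030, and Gfi1b -0.15, and the largest difference was that of Nfe2, at -0.21. This comparison shares the WT T1D mice with the change in WT, so the same 6 libraries enter both. Among mice A36 to A39, Gfi1b alone was called, at -0.65 (adjusted p = 0.0262, edgeR), where 10.1% of all genes were called, so 1 of 10 members is near the background share.

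The genes on which these factors act were described as a list of 28 red cell products, of which 27 were tested. In WT, 17 of 27 were called higher with T1D (1.71% of all tested genes were) and 0 lower, and all 27 had a positive change, with a median of 0.60 and a range from 0.35 to 0.94. Rhag, a membrane channel of the Rh complex, rose from 119 ± 25.7 (SD, n = 5) to 229 ± 81.1 CPM (n = 6), a log2 change of 0.94 ± 0.21 (adjusted p = 0.0353, edgeR). Hbb-bs (0.89 ± 0.19) and Hba-a1 (0.69 ± 0.17), adult β- and α-globin genes, and Alas2 (0.69 ± 0.19), the first enzyme of erythroid heme synthesis, were also called. The globin genes have near-identical copies between which reads could be split. In the mice labelled Sarm1-KO, 0 of 27 were called, as were 0 of all 14364 tested genes, and the median was 0.04. The interaction term also called 0 of 27 products and 0 of all genes. The median difference, KO minus WT, was -0.51, with a lowest adjusted p of 0.489 (edgeR). A difference between genotypes was thus not shown for any product after correction. As for the members, 0 products were called in WT without A3905 and A3906.

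Partners of GATA1, TAL1, and LMO2 moved less. Of 18 genes of the LDB1 complex, its corepressors, and the GATA switch, 0 were called in WT, against 2.6% of all tested genes. At that share a list of 18 would hold few or no calls. The median log2 fold change of the list was 0.04. Ssbp2, a stabilizer of LDB1, had 0.47 ± 0.14 (adjusted p = 0.0558), the small MAF partner Mafk 0.31 ± 0.10 (adjusted p = 0.0907), the myeloid factor Spi1 0.27 ± 0.14, and the corepressor Cbfa2t3 -0.27 ± 0.16. Gata2, which GATA1 replaces as erythroblasts mature, was 25.3 ± 5.84 CPM in WT Control (n = 5) and 25.1 ± 4.17 CPM in WT T1D (n = 6).

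On the EPO side, 16 of 17 genes were tested and Epo itself was not analysed here. 0 of 16 were called in WT, where 2.6% of all tested genes were, and the median was 0.15. Erfe, which encodes the erythroblast hormone erythroferrone, was 1.24 to 3.40 CPM in WT Control and 1.63 to 39.4 CPM (median 3.29) in WT T1D. The groups overlapped, and the fitted log2 fold change was 2.38 ± 0.73 (adjusted p = 0.0705, edgeR). Cish and Pim1, both STAT5 targets, had 0.73 ± 0.30 and 0.70 ± 0.23, and Socs1, a signaling inhibitor, had -0.59 ± 0.17 (adjusted p = 0.0544). Jak2, the kinase that EPOR uses, was 77.8 ± 7.61 CPM in WT Control (n = 5) and 79.9 ± 3.66 CPM in WT T1D (n = 6).

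Of 12 other erythroid regulators, Sox6 was called higher in WT, and 0 were lower, where 1.71% of all tested genes were called higher. Sox6, which works with BCL11A on globin silencing, went from 77.3 ± 12.3 (SD, n = 5) to 118 ± 22.0 CPM (n = 6), a log2 change of 0.62 ± 0.13 (adjusted p = 0.0322, edgeR). E2f4 had 0.40 ± 0.11 (adjusted p = 0.0520), Klf13 0.34 ± 0.11, and Ldb2 -0.36 ± 0.18. The embryonic globins that BCL11A and SOX6 silence, Hbb-y, Hbb-bh1, and Hba-x, together had 0.2 to 0.8 CPM in WT Control and 0.2 to 1.0 CPM in WT T1D.

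**Figure D4:**
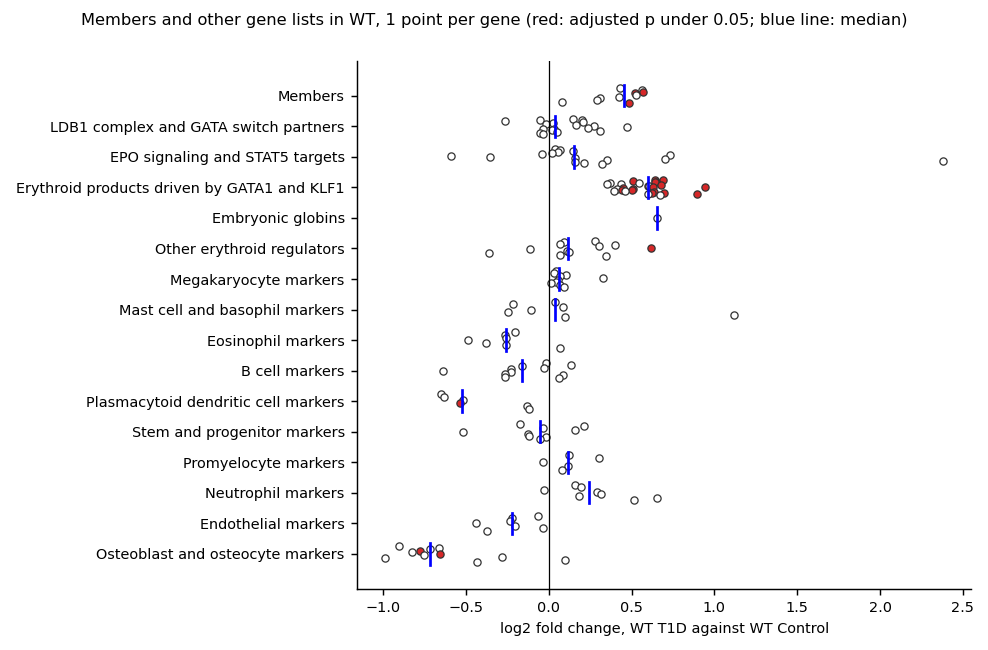
Log2 fold change of each tested gene of the members, their partner lists, and the cell type marker lists, WT T1D against WT Control, with red points past an adjusted p of 0.05 and a blue line at the median of the list. Erythroid products hold most of the red points on the right, plasmacytoid dendritic cell markers lie left of 0, and so do 10 of the 11 osteoblast and osteocyte markers.

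Bone is a mixture, and in these bulk libraries a change in the number of erythroid cells and a change in RNA per cell cannot be told apart. Over all tested genes 2.6% were called in WT, so marker lists of 5 to 11 genes would hold few or no calls at that share. Megakaryocyte markers, which share several of these factors, had 0 of 10 called in WT, with a summed level of 1263 to 1966 CPM in WT Control and 860.0 to 2242 CPM in WT T1D and Gp9 highest at 0.33 ± 0.16. Mast cell and basophil markers, of a lineage that also uses GATA1, had 0 of 7 called and summed to 87.6 to 166 and 73.0 to 151 CPM. Eosinophil markers had 0 of 7 called and summed to 1091 to 2172 and 1132 to 1931 CPM, B cell markers 0 of 11 with 486 to 1204 and 193 to 1088 CPM, and stem and progenitor markers 0 of 9 with 159 to 170.4 and 152 to 177.5 CPM. Plasmacytoid dendritic cell markers had 1 of 6 called lower (Tcf4, -0.54 ± 0.12, adjusted p = 0.0366, edgeR) and summed to 269.6 to 349 and 179.6 to 337.5 CPM. Promyelocyte markers (0 of 5 called, 3770.0 to 6518 and 5101 to 6318 CPM) and neutrophil markers (0 of 8, 23059 to 31219.5 and 25111 to 42398 CPM) did not pass either. Endothelial markers had 0 of 7 called, with 287 to 399 and 259.7 to 350.3 CPM. All 7 were lower with T1D in WT, with a median of -0.22 and a lowest adjusted p of 0.0518 (edgeR). All 7 were also lower with T1D in KO, with a median of -0.14 and 0 called. A3905 and A3906 set several of the WT T1D extremes. B cell markers summed to 193 and 234 CPM in them, against 606 to 1088 in the other WT T1D mice. Megakaryocyte markers had 872 and 860.0 against 1627 to 2242 CPM, and plasmacytoid dendritic cell markers 184 and 179.6 against 254 to 337.5 CPM. Neutrophil markers had 42398 and 38430 against 25111 to 26316 CPM. Their eosinophil sums lay within the range of the others. In KO against WT among T1D mice, 0 genes of the marker lists were called. All 7 eosinophil markers were higher in KO, with a median of 1.17 and a lowest adjusted p of 0.0646 (edgeR). They summed to 1909 to 4374 CPM in KO T1D and 1563 to 4538 CPM in KO Control. Other lists shifted as well, without a call. Plasmacytoid dendritic cell markers were higher in 6 of 6 (median 0.42) and osteoblast and osteocyte markers in 10 of 11 (0.65). B cell markers were higher in 9 of 11 (median 0.45) and megakaryocyte markers in 9 of 10 (0.17). For neutrophil markers 0 of 8 were higher (median -0.21), and the remaining lists went both ways. The part of these lists in the genotype differences of the members was not tested.

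Osteoblast and osteocyte markers had 2 of 11 called lower in WT T1D, Ibsp and Runx2 (named after their values were seen). Of all 14364 tested genes, 127 were called lower. Phex, Col1a1, and Sp7 had the largest differences, -0.99 ± 0.34, -0.91 ± 0.52, and -0.82 ± 0.35, and did not pass. The list summed to 40284 to 78240 CPM in WT Control and 3532 to 57116 CPM in WT T1D. The lowest values were those of A3905 and A3906, where most members were highest. In the 4 other WT T1D mice the sum was 40821 to 57116 CPM. No defining marker of these lists was at 0 in all mice. The part of cell mixture in the changes of the members was not tested.

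Relative to the red cell products in the same library, some members kept their level in WT T1D and others were lower. The mean log2(CPM + 0.5) of the 23 tested products other than hemoglobins rose by 0.54 from WT Control to WT T1D and by 0.06 from KO Control to KO T1D. Set against that mean, Klf1 (0.01), Tal1 (0.00), Nfe2 (-0.01), Gfi1b (-0.05), and Epor (-0.05) differed little between the WT groups. Gata1 and Zfpm1 were at -0.11. Lmo2 fell behind the products by 0.23, from -1.21 to -0.97 in WT Control to -1.44 to -1.23 in WT T1D, with each of the 6 WT T1D mice lower than the lowest Control mouse, as was the case for 18.4% of all tested genes on this scale. Bcl11a was at -0.25 and Myb at -0.45, where 3 of 6 WT T1D mice lay under the Control range for both. Without A3905 and A3906, a choice made after seeing the data, the products rose by 0.37 in WT and Lmo2 was at -0.19. For Lmo2, 4 of 4 WT T1D mice were under the Control range (19.1% of all genes), which follows from all 6 being so. Myb was at -0.15 and Bcl11a at -0.13, with 1 of 4 each under the range, Gfi1b was at -0.13, and Gata1 was at -0.11. In the KO groups the same differences ran from -0.02 (Lmo2) to 0.16 (Gata1). These are descriptions, since members and products share their libraries.

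**Figure D5:**
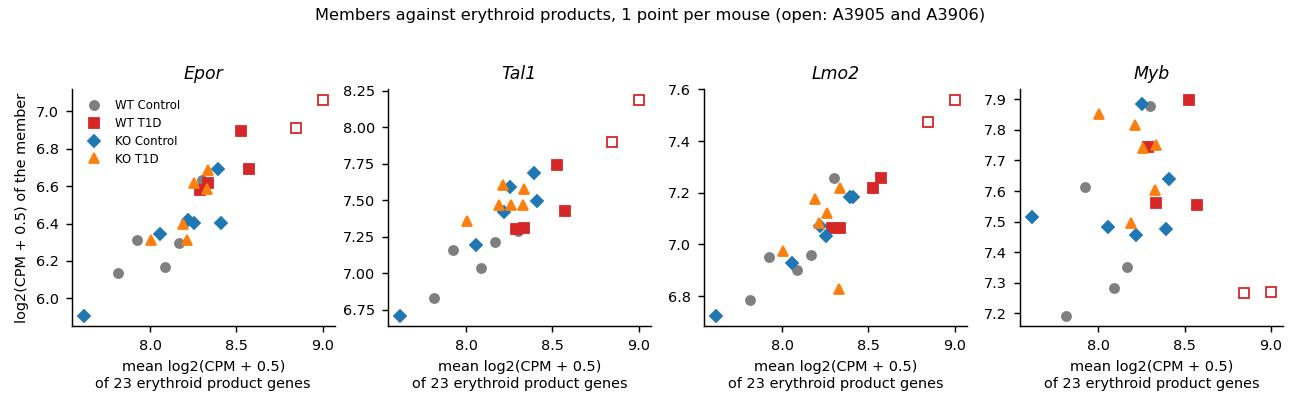
Log2(CPM + 0.5) of Epor, Tal1, Lmo2, and Myb against the mean of 23 erythroid product genes, with 1 point per mouse and the 4 groups by color and shape. Epor, Tal1, and Lmo2 climb with the products from KO Control mouse A3766 at the lower left to A3906 at the upper right, whereas Myb is low in A3905 and A3906.

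Within groups, after each group mean was taken out, most members were positively correlated over the 23 mice and Myb was the least so. Pearson's r was 0.89 between Gata1 and Tal1, 0.88 between Gata1 and Gfi1b, 0.87 between Klf1 and Epor, and 0.86 between Klf1 and Zfpm1, and the lowest r of Nfe2 with another of these was 0.21 (Zfpm1). Myb had r from -0.14 (Gfi1b) to 0.41 (Bcl11a). Points in these correlations share library and normalization, so they are given without a test. A3905 and A3906, the WT T1D mice highest for Gata1, Tal1, and Gfi1b and lowest for Myb, were kept in. So was A3766, the KO Control mouse lowest for Gata1, Tal1, and Gfi1b. The weight of these libraries on r was not tested.

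Among 13297 genes compared in this way, those most like Gata1 were Fbxo7 (r = 0.94), Cd82 (0.92), and Ctse (0.92). Tal1 was nearest to Ccna2 (0.94), Pcna (0.94), and E2f8 (0.93), genes of DNA replication and the cell cycle, and Lmo2 to Ccna2 (0.93), Cpox (0.91), and Eif5 (0.91). Klf1 was nearest to Iba57 (0.93), Blvrb (0.93), and Dnajb1 (0.93), and Gfi1b to Phyhip (0.94), E2f2 (0.94), and Slc6a9 (0.93). Epor had Hs6st1 (0.91), Dmtn (0.91), and Slc43a1 (0.91), and Zfpm1 had Tnk2 (0.90), Ifrd2 (0.89), and Ap2a1 (0.88). Nfe2 came with Eif2ak1 (0.83) and Pts (0.83), Bcl11a with Ppp6r1 (0.86), Incenp (0.84), and Srsf4 (0.83), and Myb with Syk (0.86), Btg1 (0.83), and Zbtb18 (0.82).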

How the data were processed

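RNA-Seq values of 23 mice were used, and groups and mouse IDs were taken from the library titles. The authors deposited expected counts per gene, estimated by the provider and rounded to whole numbers without normalization, and TPM values, which are scaled to length and depth. Per the labels, poly(A) RNA was sequenced as a stranded library, and after filtering the provider used HISAT and Bowtie2 on the GRCm38.p6 build. A gene was tested if 5 or more mice had 10 or more of its counts. Counts were normalized with TMM and fitted in R 4.3.3 with edgeR 4.0.16, a quasi-likelihood fit with 1 mean for each of the 4 groups over all mice and contrasts between them, with Benjamini-Hochberg adjustment over all 14364 genes and a threshold of 0.05. SEs were the log2 fold change over the root of its F statistic. CPM were counts divided by the TMM-scaled library size. DESeq2 1.42.0 and limma 3.58.1 (on log2 of TPM plus 1 or 0.1) served as alternatives, with other filters, size factors, and mice. Tables and plots were made in Python 3.11.15 (matplotlib 3.10.9, numpy 2.4.6, pandas 2.3.3). The fit was tested on simulated data. The members and lists were chosen with earlier results of these data known. Named genes were the 10 members, others drawn from the 4 largest WT changes of each list and the 3 largest of each marker list (mean of at least 1 CPM), and the 3 genes most correlated with each member. For Nfe2, 1 of these 3 is not reported here. Gata2, Jak2, Ibsp, and Runx2 fall outside this rule and were named after their values were seen. Within groups, all 55 pairs of libraries were farther apart than counting error allows (chi-square per gene 10.9 to 187), so none was counted as a repeat. Whether mice shared litters or cages is not given in the labels.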

Additional observations from a re-analysis of the deposited data

Results flagged for a closer look

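Of the 40 combinations of a member and a group, 2 held a mouse far from the rest of its group by Dixon's criterion, which chance alone reaches in about 1 in 20 groups. Klf1 was 108 CPM in KO Control mouse A3766, against 188 to 221 CPM in the other 5 KO Control mice. A3766 was also the lowest KO Control mouse for Gata1 (86.0 CPM), Tal1 (104 CPM), and Epor (59.5 CPM). Bcl11a was 57.6 CPM in WT Control mouse A1757, against 39.1 to 43.7 CPM in the other 4.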

How the results depend on the processing

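Calls in WT depended on the processing, while the log2 fold changes of 9 members stayed positive under every alternative run. With 3 members and 373 genes called in the reported fit, the counts were 6 and 1002 with DESeq2, 7 and 2147 with mice A36 to A39, 0 and 1 with only the 2 groups compared, 0 and 0 without A3905 and A3906, 0 and 5154 with limma on log2(TPM + 1), and 0 and 5173 on log2(TPM + 0.1). Without the filter on low counts, 2 members and 184 genes were called, and Tal1 lost its call (adjusted p = 0.0605, edgeR). For KO against WT among T1D mice, 5 genes became 239 (DESeq2), 1166 and 1185 (TPM + 1 and TPM + 0.1), and 1441 (A36 to A39, with 1 member), and the difference between genotypes went from 0 to 2 genes on TPM + 1. The cause of these moves was not tested. RLE size factors changed no call of a member.

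Both TPM scales turned Myb in WT to -0.20. They also turned Gata1 (-0.035) and Bcl11a (-0.068 and -0.070) in KO against WT Control, Gata1 (0.0070 and 0.0071), Tal1 (0.051 and 0.052), Zfpm1 (0.080), and Bcl11a (0.012) in KO against WT T1D, and Gata1 (0.042) and Bcl11a (0.079 and 0.082) in the difference. On TPM + 1 the median of all tested genes was itself -0.24 in WT and -0.033 in KO against WT Control. It was 0.17 in KO against WT T1D and 0.20 in the difference. Without A3905 and A3906, Tal1 in KO against WT T1D was 0.033 and Myb in the difference -0.081.

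Leaving out 1 mouse at a time gave 0 to 8 called members and 0 to 1253 called genes in WT, 3 to 69 genes for KO against WT T1D, and 0 members in every other comparison. In the KO groups, leaving out KO Control mouse A3766 turned Klf1 (range -0.026 to 0.16), Tal1 (-0.00061 to 0.17), Zfpm1 (-0.011 to 0.18), and Lmo2 (-0.016 to 0.083). Gata1 (-0.071 to 0.11) and Epor (-0.018 to 0.15) turned in KO against WT Control, and Myb (-0.067 to 0.12) in the difference. The adjusted p ranged from 0.0104 to 0.0985 for Nfe2, 0.0160 to 0.114 for Epor, and 0.0195 to 0.141 for Tal1 (edgeR).

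No paired analysis was possible because no mouse ID occurs in more than one group. With 5 or 6 mice per group, the number of mice and not the counts per member limits the precision.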
